A study of Mus musculus with 6 samples.

Results

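The genes of cholesterol and fatty acid synthesis were followed in the mouse uterus at gestation day (GD) 3.5, with and without *Sox17* in the epithelium. The set held 31 genes, out of 14852 genes tested and 20141 genes that could be named on the array. Its genes were chosen by name from the pathway, with earlier results of these data known. They were 7 enzymes from acetyl-CoA to farnesyl pyrophosphate, 11 enzymes from squalene to cholesterol, 5 regulators of the SREBP system, 7 enzymes that make or activate fatty acids and 1 sterol carrier. All 31 were well above background on all 6 arrays.

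Whole uterine RNA was hybridised to 6 one-colour Agilent arrays, 3 biological samples per genotype. *Sox17* f/f females, labelled WT, carried floxed *Sox17* alleles and no Cre. *Sox17* ed/ed females, labelled LtfiCre/+ Sox17 f/f, carried the same floxed alleles together with iCre at the lactoferrin locus (*Ltf*), which removes *Sox17* from the uterine epithelium from puberty on. *Ltf* is itself an estrogen-induced gene, and endothelial *Sox17* is left in place. The females were mated naturally at 8 to 10 weeks of age, the day of the plug was GD 0.5, and the horns were flushed of embryos at GD 3.5. The controls were littermates, as the series describes them. Because whole uteri were measured, fewer cells of a type and less RNA per cell cannot be told apart in any value below.

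Cholesterol is built from acetyl-CoA through mevalonate, which is phosphorylated, decarboxylated and joined into farnesyl pyrophosphate and squalene. Squalene is then closed into lanosterol and trimmed to cholesterol. When membranes run short of sterol, SCAP carries the SREBP factors to the Golgi, where they are cut and released to switch on these genes, and INSIG proteins hold them back when sterol is plentiful. Fatty acid synthesis runs beside it, from citrate through malonyl-CoA to palmitate, which ELOVL6 lengthens and the SCD enzymes desaturate. In the uterus, growth of the epithelium under estrogen calls for new membrane, which is built from both.

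The early enzymes *Pmvk*, *Mvk* and *Hmgcs1* are shown by sequence because the first fell, the next rose and the last did not pass the test, while they serve the same short run of reactions. The 250 bases before their starts are given from RefSeq on GRCm38.p6, 5′ to 3′ on the gene's strand. *Pmvk* lies at chr3:89454291-89454540 (+), *Mvk* at chr5:114444019-114444268 (+) and *Hmgcs1* at chr13:119690101-119690350 (+). Capitals mark a sterol element (TCACNCCAC), the CCAAT box (CCAAT) and the core that SOX proteins bind (ACAAT), searched on both strands.
Pmvk: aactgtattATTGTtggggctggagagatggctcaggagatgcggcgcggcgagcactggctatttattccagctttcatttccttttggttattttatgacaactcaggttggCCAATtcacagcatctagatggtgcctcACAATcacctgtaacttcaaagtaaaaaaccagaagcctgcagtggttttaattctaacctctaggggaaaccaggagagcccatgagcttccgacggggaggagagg
Mvk: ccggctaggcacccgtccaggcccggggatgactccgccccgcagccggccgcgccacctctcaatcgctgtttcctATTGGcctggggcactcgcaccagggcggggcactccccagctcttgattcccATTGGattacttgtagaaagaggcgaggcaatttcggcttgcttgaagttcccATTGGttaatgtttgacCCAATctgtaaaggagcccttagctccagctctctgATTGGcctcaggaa
Hmgcs1: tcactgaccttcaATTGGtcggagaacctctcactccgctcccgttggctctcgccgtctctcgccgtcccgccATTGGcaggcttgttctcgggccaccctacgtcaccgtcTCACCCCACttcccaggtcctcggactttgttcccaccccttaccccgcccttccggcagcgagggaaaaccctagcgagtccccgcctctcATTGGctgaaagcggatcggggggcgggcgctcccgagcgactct

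The *Pmvk* stretch holds 1 CCAAT box and 2 ACAAT cores, the *Mvk* stretch 5 CCAAT boxes, and the *Hmgcs1* stretch 3 CCAAT boxes and 1 sterol element, which starts 137 bases before the gene. A second *Pmvk* start in the table had none of these motifs. Promoters were found for 25 of the 31 genes, 33 promoters in all. *Fdps*, *Fdft1*, *Sqle*, *Scd1*, *Scd2* and *Stard4* were not matched. CCAAT stood in 21 of the 33 (63.6%) and in 33.8% of 32851 promoters of the same length. ACAAT stood in 3 of the 33 (9.09%), those of *Pmvk*, *Acat2* and *Ebp*, and in 27.7% of all promoters, and TCACNCCAC stood in 1 (3.03%) and in 1.05%. CCAAT matches can overlap each other. These are letter matches, not measured binding.

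*Sox17* was lower in every *Sox17* ed/ed uterus. Its log2 signal was 12.21, 12.07 and 12.22 in *Sox17* f/f and 9.75, 9.59 and 9.81 in *Sox17* ed/ed, a 5.46-fold fall. Between 56.8% and 65.7% of the spots of an array were well above background, and no spot was saturated. The 6 arrays lay on 1 slide, each genotype on its own line of the slide, so position on the slide and genotype cannot be told apart.

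Among the 31 genes, 4 rose in *Sox17* ed/ed (*Mvk*, *Scd1*, *Scd2* and *Elovl6*), 2 fell (*Pmvk* and *Acaca*) and 25 did not pass an adjusted p under 0.05 in limma. That was 6 of 31 (19.4%), against 18.8% of all genes tested, and by direction 8.81% of all genes rose and 10.0% fell. The number called is near the background here and is not a result about these genes. In other analyses the share lay between 9.68% of the 31 at the study's thresholds and 35.5% with an eBayes intensity trend, where 22.3% of all genes were called. The groups of arrays did not overlap for 20 of the 31 (64.5%), against 40.3% of all genes tested, and 14 of those 20 were among the 25 that did not pass. The 2 shares differ in rule. The 20 include *Hsd17b7*, with 1 array missing, whereas among all genes any gene with a missing array was counted as overlapping. At the study's own thresholds, an unadjusted p under 0.01 and a change of at least 1.4-fold, 3 genes passed (*Scd1* and *Scd2* higher, *Pmvk* lower), with 12.5% of all genes.

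The genes did not move one way. Of the 31 log2 fold changes, 17 were above 0 and 14 below, with a median of 0.05, against -0.00 for all genes. Their median absolute log2 fold change was 0.27, against 0.17 for all genes. The median SD within a genotype was 0.114 on the log2 scale, close to the 0.110 of all genes. For 14 of the 25 genes that did not pass, the 95% confidence interval lay wholly within 1.4-fold in either direction.

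**Figure D1:**
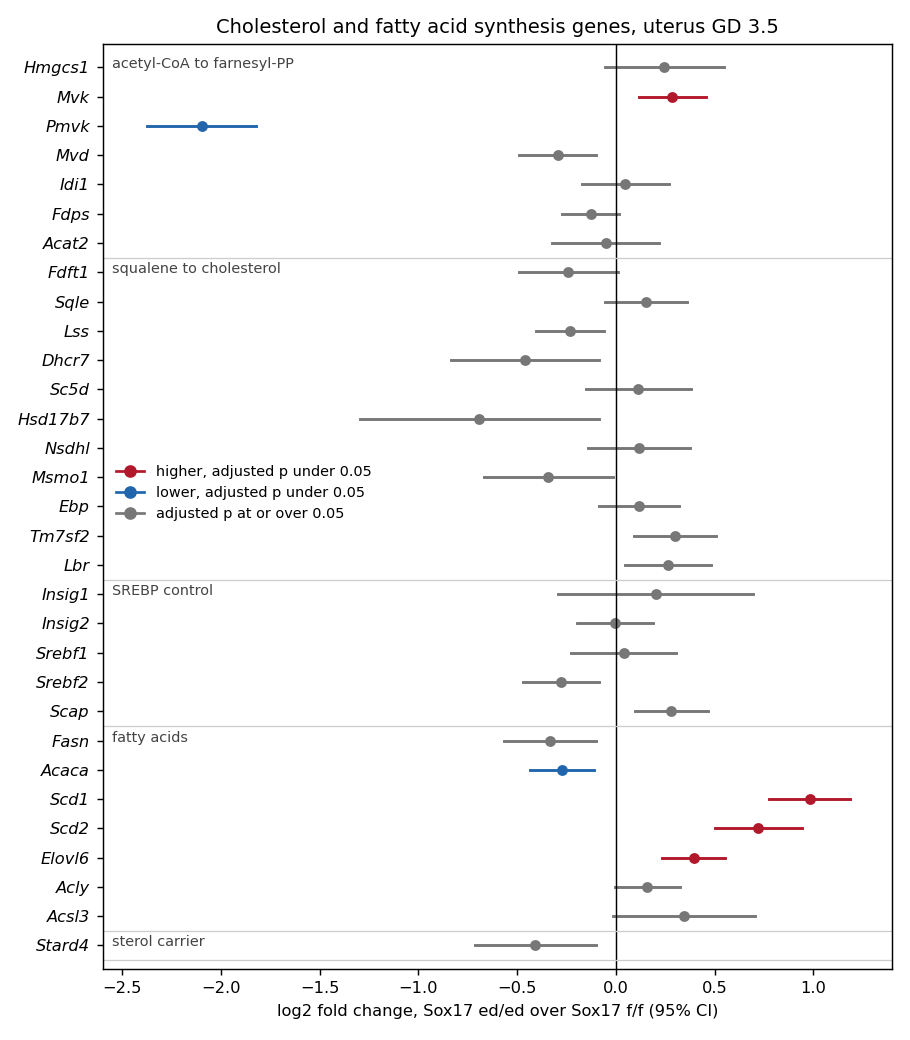
Log2 fold change of each of the 31 genes (x axis, *Sox17* ed/ed over *Sox17* f/f, point with 95% confidence interval from limma, 3 arrays per genotype), in the order of the pathway. *Pmvk* at -2.10 stands far to the left of the other enzymes, whereas *Scd1* at 0.98 and *Scd2* at 0.72 lie furthest to the right.

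The steps from acetyl-CoA to farnesyl pyrophosphate were split by 1 enzyme. *Pmvk* encodes phosphomevalonate kinase, which adds the second phosphate to mevalonate. *Pmvk* read 13.91, 14.09 and 13.67 on the *Sox17* f/f arrays and 11.78, 11.82 and 11.79 on the *Sox17* ed/ed arrays. Every *Sox17* ed/ed uterus lay below every control by more than the spread of either group, with means of 13.89 ± 0.21 and 11.79 ± 0.02 (SD, n = 3). The log2 fold change was -2.10 ± 0.11 (SE), a 4.28-fold fall with a limma adjusted p of 0.000115. A second probe for the gene gave -2.03. The fall was called in all 15 alternative analyses, with values between -2.21 and -1.998.

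*Mvk*, mevalonate kinase, acts 1 step earlier. *Mvk* was at 11.65, 11.57 and 11.67 in *Sox17* f/f and at 12.00, 11.85 and 11.90 in *Sox17* ed/ed. The groups did not overlap, and the gene rose by a log2 fold change of 0.29 ± 0.07 (adjusted p = 0.0367). The call was lost with any 1 of the 6 arrays left out, where the adjusted p lay between 0.0598 and 0.110 and the log2 fold change between 0.24 and 0.32. Its second probe gave 0.31. The 2 adjacent kinases were thus called in opposite directions, *Mvk* by a small change that was not called with fewer arrays and *Pmvk* by a large one.

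*Hmgcs1*, the synthase that makes HMG-CoA and a standard SREBP target, read 11.20, 11.35 and 11.46 in *Sox17* f/f and 11.56, 11.39 and 11.79 in *Sox17* ed/ed. The groups overlapped, and the log2 fold change of 0.25 ± 0.12 did not pass (adjusted p = 0.222). *Acat2*, the cytosolic thiolase that opens the pathway, was at -0.05 ± 0.11. *Mvd*, the decarboxylase that acts after *Pmvk*, read 8.62, 8.85 and 8.70 in *Sox17* f/f and 8.44, 8.37 and 8.46 in *Sox17* ed/ed. Its groups did not overlap, but its log2 fold change of -0.30 ± 0.08 had an adjusted p of 0.0522. *Idi1*, the isomerase, was at 0.05 ± 0.09, and *Fdps*, farnesyl pyrophosphate synthase, was at -0.13 ± 0.06 (adjusted p = 0.190). Their intervals and that of *Acat2* lay within 1.4-fold.

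**Figure D2:**
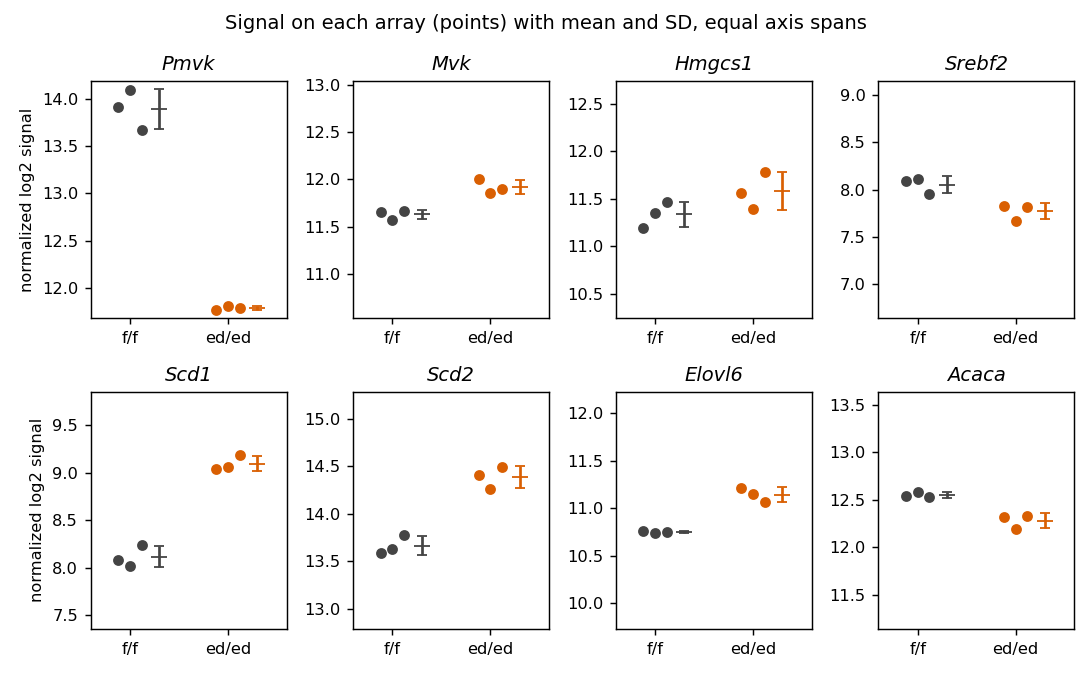
Normalized log2 signal (y axis, each panel spanning the same number of log2 units) of 8 of the genes on each array, with the mean and SD of 3 arrays per genotype beside the points. The *Sox17* f/f and *Sox17* ed/ed arrays are fully apart for all panels but *Hmgcs1*, and the gap is widest for *Pmvk*.

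None of the 11 enzymes from squalene to cholesterol passed the test. Their log2 fold changes ran from -0.69 to 0.30 with a median of 0.11. *Fdft1*, squalene synthase, was at -0.24 ± 0.10 (adjusted p = 0.158), *Sqle*, the epoxidase that is a rate-limiting step, at 0.15 ± 0.09 (0.269), and *Lss*, lanosterol synthase, at -0.23 ± 0.07 (0.0696). The last of these read 6.87, 6.77 and 6.93 in *Sox17* f/f and 6.68, 6.60 and 6.60 in *Sox17* ed/ed, without overlap.

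Both sterol C14 reductases were on the high side in *Sox17* ed/ed. *Tm7sf2* read 9.85, 9.66 and 9.68 in *Sox17* f/f and 10.07, 9.92 and 10.09 in *Sox17* ed/ed, and *Lbr*, which is also the lamin B receptor of the nuclear membrane, read 10.54, 10.70 and 10.80 against 10.92, 10.89 and 11.03. Neither gene's groups overlapped, and neither passed, with log2 fold changes of 0.30 ± 0.09 (adjusted p = 0.0609) and 0.26 ± 0.09 (0.0931). A second *Lbr* probe gave 0.04.

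The enzymes that strip the C4 methyl groups were *Msmo1*, *Nsdhl* and *Hsd17b7*. *Msmo1*, the oxidase, was at 10.17, 10.55 and 10.17 in *Sox17* f/f and 9.85, 9.87 and 10.13 in *Sox17* ed/ed (log2 fold change -0.34 ± 0.14, adjusted p = 0.135). *Nsdhl*, the dehydrogenase, was at 0.12 ± 0.11, with an interval within 1.4-fold. *Hsd17b7*, the keto-reductase, which also converts estrone to estradiol, read 6.85, 7.15 and 7.04 in *Sox17* f/f and 6.70 and 5.94 on the *Sox17* ed/ed arrays 1 and 2. Its spot on array 3 was marked as an outlier by the scanner software and left out of the fit, which gave -0.69 ± 0.24 over 5 arrays (adjusted p = 0.110). That spot had a log2 processed signal of 11.30 but a log2 median pixel signal of 7.51, and with it kept, in the deposited processed values, the log2 fold change was 0.96. A second *Hsd17b7* probe, measured on all 6 arrays, gave -0.36 with an unadjusted p of 0.00657.

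The last steps gave no common direction either. *Ebp*, the sterol isomerase, was at 0.12 ± 0.08 and *Sc5d*, the desaturase, at 0.11 ± 0.11, both with intervals within 1.4-fold. *Dhcr7*, the final reductase of the Kandutsch-Russell branch, read 8.14, 8.46 and 8.20 in *Sox17* f/f and 7.75, 7.58 and 8.09 in *Sox17* ed/ed. Its groups were just apart, and its log2 fold change of -0.46 ± 0.15 did not pass (adjusted p = 0.0910). Among the *Sox17* ed/ed arrays, array 3 was the highest for 10 of the 17 mevalonate and sterol enzymes measured on all arrays, against 4 for array 1 and 3 for array 2. How often array 3 was the highest among all genes was not counted, so this is not a result about these enzymes.

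**Figure D3:**
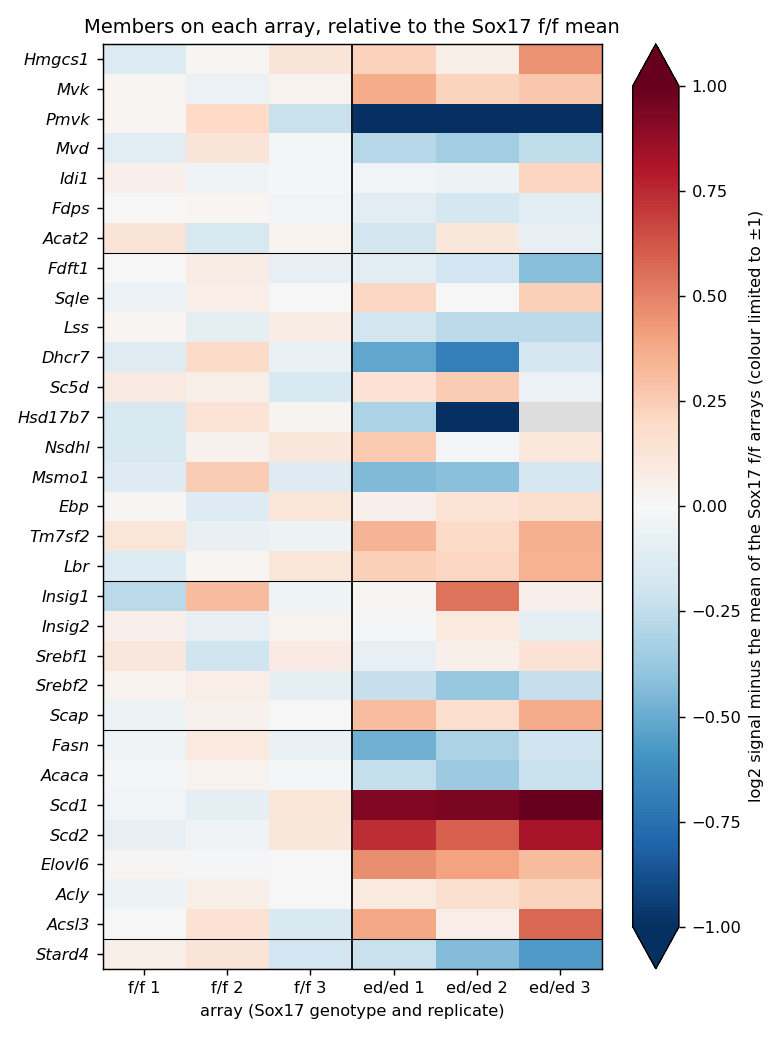
Signal of the 31 genes (rows) on each of the 6 arrays (columns), as the log2 difference from the mean of the 3 *Sox17* f/f arrays, with the colour limited to a difference of 1 in either direction and grey for the *Hsd17b7* spot left out. *Scd1*, *Scd2* and *Pmvk* form the only rows with a deep colour on all 3 *Sox17* ed/ed arrays, and most other rows are pale.

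None of the 5 regulators of the SREBP system passed. *Srebf2*, whose product drives sterol genes, read 8.09, 8.12 and 7.95 in *Sox17* f/f and 7.82, 7.67 and 7.82 in *Sox17* ed/ed, without overlap (log2 fold change -0.28 ± 0.08, adjusted p = 0.0604). *Scap*, the escort of the SREBPs, went the other way, from 11.88, 11.97 and 11.94 to 12.23, 12.09 and 12.30 (0.28 ± 0.08, adjusted p = 0.0522). Both intervals lay within 1.4-fold.

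*Srebf1*, whose product drives fatty acid genes, was at 0.04 ± 0.11 and *Insig2* at -0.00 ± 0.08, the smallest difference of the 31. *Insig1*, a retention protein that SREBPs themselves induce, varied most between replicates of these 5 genes. It read 6.39, 6.98 and 6.62 in *Sox17* f/f and 6.67, 7.20 and 6.71 in *Sox17* ed/ed, and its log2 fold change of 0.20 ± 0.20 had an interval from -0.29 to 0.69. Any change within that interval, including none, was compatible with these values.

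Fatty acid synthesis held 4 of the 6 calls. *Scd1*, stearoyl-CoA desaturase, which makes oleate and palmitoleate, read 8.08, 8.02 and 8.24 in *Sox17* f/f and 9.04, 9.05 and 9.19 in *Sox17* ed/ed. Its log2 fold change was 0.98 ± 0.08 (1.97-fold, adjusted p = 0.000718). *Scd2*, a second desaturase gene, read 13.58, 13.63 and 13.78 against 14.40, 14.26 and 14.49 (0.72 ± 0.09, 1.65-fold, adjusted p = 0.00339). Both genes were higher in each *Sox17* ed/ed uterus than in any control. *Scd3* and *Scd4*, named for their similarity in sequence, did not pass (0.17 and -0.03), and whether a probe of 1 *Scd* gene also reads another was not tested.

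*Elovl6*, the elongase that turns palmitate into stearate, read 10.76, 10.74 and 10.75 in *Sox17* f/f and 11.21, 11.15 and 11.06 in *Sox17* ed/ed. It rose by a log2 fold change of 0.39 ± 0.07 (1.31-fold, adjusted p = 0.0102), with control values that differed by less than those of any other of the 31 genes (SD 0.0104). The 3 rises, in *Scd1*, *Scd2* and *Elovl6*, were called in all 15 alternatives, with lowest log2 fold changes of 0.85, 0.64 and 0.35.

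The enzymes upstream of them did not rise. *Acaca*, acetyl-CoA carboxylase 1, the committed step to malonyl-CoA, fell from 12.54, 12.59 and 12.54 to 12.31, 12.19 and 12.33 (log2 fold change -0.27 ± 0.07, adjusted p = 0.0383). Its groups were apart, and its 2 other probes gave -0.55 and -0.33. The call was lost with any 1 array left out, where the adjusted p lay between 0.0649 and 0.112 and the log2 fold change between -0.30 and -0.23. *Fasn*, fatty acid synthase, read 8.83, 8.96 and 8.79 in *Sox17* f/f and 8.38, 8.54 and 8.66 in *Sox17* ed/ed, without overlap (-0.33 ± 0.10, adjusted p = 0.0588).

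*Acly*, the lyase that splits citrate into cytosolic acetyl-CoA, was at 0.16 ± 0.07 (adjusted p = 0.157). Its second probe gave -0.17. Of the 12 further probes tested for 11 of the genes, 11 had the sign of the probe used, and the *Acly* probe was the exception. *Acsl3*, an acyl-CoA synthetase of lipid droplets, read 5.72, 5.86 and 5.56 against 6.10, 5.78 and 6.28, with overlap (0.34 ± 0.15, adjusted p = 0.164). *Stard4*, which carries cholesterol between membranes and is induced by SREBP2, read 9.70, 9.77 and 9.45 in *Sox17* f/f and 9.42, 9.20 and 9.07 in *Sox17* ed/ed (-0.41 ± 0.13, adjusted p = 0.0729).

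Before adjustment, 11 of the 25 uncalled genes had p under 0.05, 3 with higher (12.0%) and 8 with lower signal (32.0%) in *Sox17* ed/ed. Of all 12054 uncalled genes, 9.28% had such a p with higher and 9.22% with lower signal. For a single gene, an exact two-sided permutation test of 3 arrays against 3 cannot go below p = 0.1, and it gave that value for each gene whose groups were apart, except *Hsd17b7*, with 5 arrays, where it was 0.2.

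The rest of lipid metabolism was read from 8 lists of neighbouring genes. Of their 116 genes 111 were tested, 12 rose and 11 fell, 20.7% in all against 18.8% of all genes tested, so this count too is near the background. Of 4 other cholesterol synthesis genes *Erg28*, a scaffold of the C4 demethylation enzymes, rose by 0.25 and the others did not pass.

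No gene of SREBP processing and turnover passed (9 tested, adjusted p under 0.05), with log2 fold changes from -0.23 to 0.02. In sterol uptake and movement, 3 of 13 genes fell and none rose. These were *Npc1* (-0.61), which releases cholesterol from lysosomes, *Soat2* (-0.60), which esterifies it, and *Lipa* (-0.54), the lysosomal acid lipase. None of these 3 falls was called with every single array left out. Among 11 genes of LXR signalling and sterol efflux, the exporter *Abca1* fell by 0.33 on the log2 scale and the others did not pass.

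Of 23 other genes of fatty acid synthesis 3 rose and 3 fell. *Thrsp*, which promotes lipogenesis, fell (log2 fold change -1.30 ± 0.28), and its close relative *Mid1ip1*, an activator of acetyl-CoA carboxylase, rose (0.60 ± 0.09). *Elovl7*, an elongase of long saturated chains, rose by 0.70, *Acss2*, which makes acetyl-CoA from acetate, fell by 0.68, and *Fads3*, of the desaturase family, fell by 0.29. Of these 5, *Mid1ip1* was called in all 15 alternatives.

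Fatty acid uptake and activation had 4 rises and 1 fall among 15 genes. *Slc27a2*, a transporter with very-long-chain acyl-CoA synthetase activity, read 6.36, 6.005 and 6.72 in *Sox17* f/f and 8.81, 8.21 and 8.57 in *Sox17* ed/ed (log2 fold change 2.17 ± 0.22, adjusted p = 0.00152). Its relatives *Slc27a3* (0.82) and *Slc27a1* (0.39) rose, *Slc27a4* (-0.55) fell, and *Lpl*, lipoprotein lipase, rose (0.42).

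Triglyceride synthesis and lipid droplets had 2 rises and 3 falls among 19 genes. *Dgat2*, which adds the last acyl chain to triglyceride, read 14.34, 14.13 and 13.90 in *Sox17* f/f and 11.52, 11.47 and 11.61 in *Sox17* ed/ed, the largest change of these lists (-2.59 ± 0.12, 6.02-fold lower, adjusted p = 7.15e-05). *Cideb*, of lipid droplets and lipoprotein loading, rose by 1.002, and *Mgll*, monoglyceride lipase, by 0.78. *Fitm2*, needed for droplet budding, fell by 0.63 and *Abhd5*, the activator of triglyceride lipase, by 0.33. The other *Abhd5* probes gave -0.12 and -0.03, and its fall was called in 1 of 6 analyses with an array left out. Of 17 genes of fatty acid oxidation, *Ehhadh* of peroxisomes (0.76) and *Acaa2* of mitochondria (0.28) rose and 15 did not pass.

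**Figure D4:**
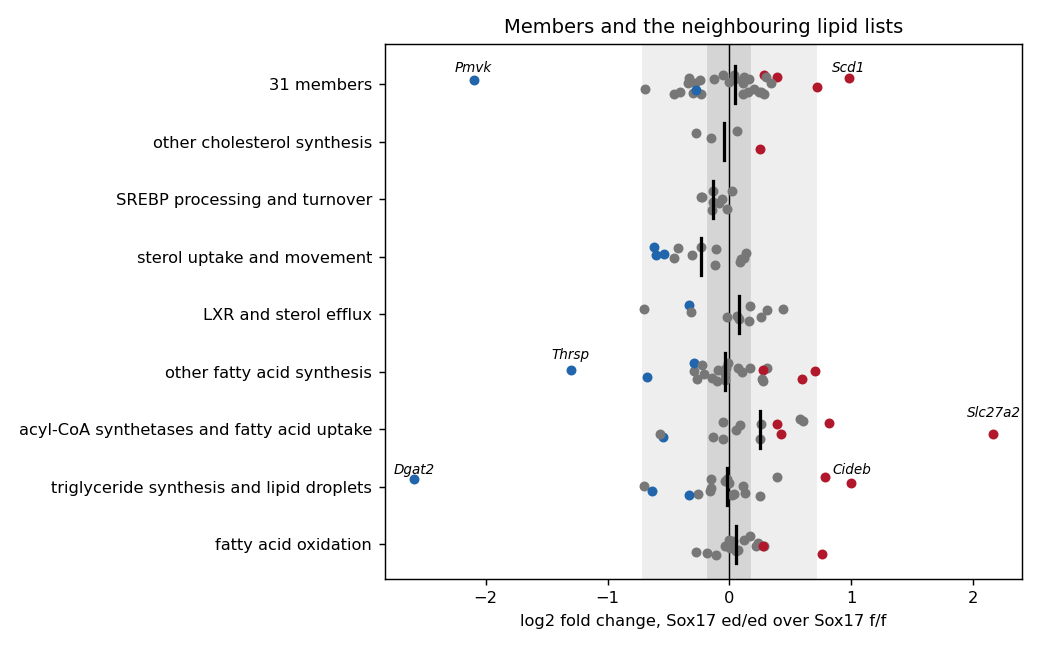
Log2 fold changes (x axis, *Sox17* ed/ed over *Sox17* f/f) of the 31 genes and of 8 neighbouring lists (y axis), 1 point per tested gene, red for called higher, blue for called lower and grey for not called. Black ticks are the list medians, the dark band holds the middle of all genes tested (25th to 75th percentile, -0.17 to 0.17) and the light band the 5th to 95th percentile (-0.71 to 0.71).

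Markers of the cell types of the uterus differed between the genotypes as well. Of 12 epithelial markers 4 rose, led by *Krt19* (2.10) and *Krt7* (1.46), and 2 fell, led by *Cldn3* (-1.16), while the summed signal of the list overlapped between genotypes (57347 to 60252 and 58065 to 70464). *Krt19* was the marker of this list whose mean linear signal differed most between genotypes. Without it that sum was lower in every *Sox17* ed/ed uterus (42982 to 50004, against 52923 to 56539). Of 9 endothelial markers 7 fell, led by *Vwf* (-0.84), *Esam* (-0.57) and *Erg* (-0.45), and of 9 smooth muscle markers 3 fell, *Actg2* (-0.64), *Synm* (-0.57) and *Cnn1* (-0.48). Of 11 stromal markers *Hoxa10* rose (0.34) and *Dcn* fell (-0.42). The summed signals of the endothelial and smooth muscle lists were lower in every *Sox17* ed/ed uterus than in any control. This held also without the gene of each list whose mean linear signal differed most between genotypes. The stromal sum was also lower (291416 to 313945, against 326455 to 331937), but without *Dcn* the genotypes overlapped (208653 to 228043 and 210838 to 219457). The cell cycle list was higher in sum in every *Sox17* ed/ed uterus (36827 to 40573, against 24384 to 32209), with *Mcm5* called (0.40). Of 9 leukocyte markers *Csf1r* rose (0.41), and the summed signal of that list was also higher in every *Sox17* ed/ed uterus. With 1 array left out, *Synm* and *Csf1r* were called in 2 of 6 analyses and *Cnn1*, *Erg* and *Mcm5* in 1.

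Adipocytes use many of these genes, and 7 of 12 adipocyte markers could be tested. *Plin1*, *Cidec* and *Lep* were not well above background on any array, and *Retn* and *Ucp1* on 1 array each. Of 7 adipocyte markers tested, *Thrsp*, *Plin4* and *Pparg* fell, the last in only 1 of 6 analyses with an array left out. *Car3* (-1.12) and *Fabp4* (-0.78) had lower mean signals, with the groups apart, and did not pass. *Cfd* and *Adipoq* had higher mean signals (1.08 and 0.95), with overlapping groups, and did not pass. *Adipoq* was well above background on 1 *Sox17* f/f array and 2 *Sox17* ed/ed arrays. The summed signal was 3076 to 4834 in *Sox17* f/f and 1653 to 2268 in *Sox17* ed/ed. *Thrsp*, also counted above with fatty acid synthesis, gave 1882 to 3605 of it in *Sox17* f/f and 795 to 1220 in *Sox17* ed/ed, and without it the sum was 1194 to 1282 and 858 to 1048, still apart. Of 11 ovary markers 5 were tested and none passed. *Cyp11a1*, not tested, had a log2 signal of 9.42 on *Sox17* ed/ed array 3 and was not well above background on the other 5 arrays. *Hsd3b1*, *Cyp19a1*, *Lhcgr*, *Fshr* and *Amh* were not well above background on any array. On the *Sox17* ed/ed arrays, in order, *Star* read 5.82, 5.79 and 6.02 and *Cyp17a1* 10.01, 9.96 and 9.55. *Inha* read 8.10, 8.46 and 8.49, *Inhba* 7.27, 6.59 and 7.03 and *Oxt* 4.59, 3.65 and 3.59. On the *Sox17* f/f arrays *Star* read 6.18, 6.23 and 5.27 and *Cyp17a1* 10.11, 9.65 and 9.56. There *Inha* read 8.25, 8.15 and 8.23, *Inhba* 7.29, 7.41 and 7.09 and *Oxt* 4.81, 5.26 and 4.01. *Oxt* was well above background on 3 *Sox17* f/f arrays and 1 *Sox17* ed/ed array. The part of these cell types in the values of the lipid genes was not tested.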

How the data were processed

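Uterine RNA of 3 mice per genotype was measured on one-colour Agilent G3 Mouse GE arrays, and samples were grouped by their titles. Scanner output was deposited for every array. Its headers name Feature Extraction 11.0.1.1, and the submitters' notes 9.1. The deposited intensity used here was the processed signal, background-subtracted by that software and not normalized between arrays. A deposited table of processed values lay within 0.191% of the mean of that signal.

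Control spots and 169 to 302 outlier spots per array were dropped. Intensities were log2 transformed and, as in the study's methods, quantile normalized. Spots were averaged by probe. A probe had to be well above background on at least 3 arrays, and the one with the highest mean stood for its gene. Of 55681 probes, 26576 were named through RefSeq accessions. The genotypes were compared with limma 3.58.1 (lmFit and eBayes, R 4.3.3), p-values were adjusted by Benjamini-Hochberg across the 14852 genes tested, and the threshold was 0.05. Signals of different probes are not comparable as levels, so genes were not ranked by signal. The marker sums add linear signals of different probes, so bright probes weigh most in them, and they were compared only between genotypes. Precision is limited by the number of arrays, 3 per genotype. The limma p-values weigh the genotype difference against the spread between these samples, moderated across genes by eBayes. The steps were tested on simulated data. Tallies were made in Python 3.11.15 (pandas 2.3.3), exact permutation tests with scipy 1.17.1 and plots with matplotlib 3.10.9.

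Named were all 31 genes, *Sox17*, up to 5 called genes of each lipid list with the largest change, and up to 3 of each marker list. *Scd3*, *Scd4*, *Car3*, *Fabp4*, *Cfd*, *Adipoq*, *Cyp11a1*, the tested ovary markers and the markers not above background are named outside this rule. The members and lists were chosen with earlier results of these data known, and 3 genes of the lipid lists are not reported here.

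Alternatives departed from these steps as follows. Arrays were scaled by the 75th percentile, or background was corrected by normexp (offset 50, on the median signal because no mean signal was in the columns used). The filter was dropped or set to all 6 arrays. A gene was represented by the average of its probes or by the smallest p. An eBayes trend, a block on the replicate number, the deposited processed values and the thresholds of the methods were tried, and each array was left out in turn. Normexp also changed the signal column, the thresholds of the methods dropped the adjustment and added a fold limit, and the deposited values kept outlier spots. The sum of each marker list without the gene whose mean linear signal differed most between genotypes was added after the values were seen. The study's ChIP-seq, qRT-PCR and staining were not analysed here.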

Additional observations from a re-analysis of the deposited data

How the results depend on the processing

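*Pmvk*, *Scd1*, *Scd2* and *Elovl6* kept direction and call in all 15 alternatives run per gene, whereas *Mvk* was called in 4 and *Acaca* in 6. Of the 25 other genes, 10 were called in at least 1 alternative and 15 in none. Of the 31 genes, 4 were called higher, and 2 at the thresholds of the methods, 6 with the eBayes trend, 5 with normexp and with the filter on all 6 arrays, and 3 without a filter, with the 75th percentile or with the mean of probes. In both directions together the trend called 35.5% (22.3% of all genes), normexp 32.3% (20.2%) and the filter on all 6 arrays 29.0% (19.7%). With arrays left out in turn 3 to 4 were called higher. In both directions together 12.9% to 16.1% of the 31 were then called, and 11.1% to 17.9% of all genes. Against 2 called lower, there were 5 with normexp and with the eBayes trend, 1 without a filter, 1 at the thresholds of the methods, and 4 with the filter on all 6 arrays, the mean of probes or the smallest p. Leaving out arrays gave 1 to 2, with 1 without *Sox17* f/f replicate 1, *Sox17* f/f replicate 2 or *Sox17* ed/ed replicate 2. The replicate numbers did not pair the samples (correlations of deviations 0.06, -0.11 and -0.00), and with the number as a block 3 were called higher and 1 lower, and 1852 genes in all against 2798.

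The genes that changed sign did not pass in the analysis reported. *Acat2* was at 0.018 and *Srebf1* at -0.045 with normexp, *Acly* at -0.0075 with the mean of its probes, and *Hsd17b7* at 0.96 in the deposited processed values, which keep the outlier spot. With arrays left out, *Idi1* ranged from -0.040 to 0.095, *Acat2* from -0.134 to 0.014, *Insig2* from -0.054 to 0.042 and *Srebf1* from -0.059 to 0.0996. Apart from that spot, the causes were not tested. No scaling moved the median of all genes by more than 0.02 in either direction.

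Of the 23 called genes of the lipid lists, 6 were called in all 15 alternatives (*Dgat2*, *Fitm2*, *Mgll*, *Mid1ip1*, *Slc27a2* and *Slc27a3*) and 7, these and *Cideb*, with each array left out. The 12 rises and 11 falls became 5 and 3 without *Sox17* f/f replicate 1 or *Sox17* ed/ed replicate 1, 7 and 6 without *Sox17* f/f replicate 2, 7 and 4 without *Sox17* ed/ed replicate 3, 6 and 5 with the replicate block, and 8 and 5 without a filter. Fewer of all genes tested were called there too, against 18.8% in the analysis reported. Without *Sox17* f/f replicates 1, 2 and 3 the share was 11.1%, 12.8% and 17.9%. Without *Sox17* ed/ed replicates 1, 2 and 3 it was 12.2%, 13.6% and 12.7%. The replicate block gave 12.5% and no filter 10.3%. With arrays left out, the 7 endothelial falls became 2 (*Sox17* f/f replicate 1), 3 (*Sox17* ed/ed replicate 1), 4 (*Sox17* f/f replicate 2, *Sox17* ed/ed replicate 3) or 5, and the 3 smooth muscle falls became 1 except without replicate 3 of either genotype. With 3 arrays per genotype and signals near background uncertain on a log scale, small changes of dim genes were not resolved.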
